A study of Drosophila melanogaster with 16 samples.

Results

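The ecdysone receptor genes EcR and usp and 5 genes known as ecdysone targets or partners in the same cascade, Eip75B, Eip74EF, br, Hr39 and ftz-f1, were followed by name through every library. They are 7 of the 14229 genes counted, and for each the gene model with the longest coding sequence (CDS) was taken. Libraries came from OSS cells, a culture of somatic follicle cells of the Drosophila melanogaster ovary. Cells were electroporated with 500 pmol of siRNA per 10 cm plate and harvested 6 days later. The 4 siRNA groups were siGFP (the negative control), siPIWI (against piwi, a nuclear small RNA effector), siPAF1 (against Paf1, a transcription elongation factor listed as atms in the files) and siPIWI with siPAF1 together. RNA from each was taken from NUN pellets, a name the labels do not spell out, and from cytoplasm lysates, which gives 8 groups of 2 libraries, labelled OSS_146 and OSS_147. Nothing says that the 2 libraries came from separate cultures, so p-values measure only the spread between these libraries. Every group is the same cell line electroporated with siRNA, and the medium of all of them holds fly extract, serum and insulin. The protocols mention no added ecdysone.

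Ecdysone is the steroid hormone that times moulting and metamorphosis in insects, and in the ovary it acts on follicle cells and on egg chamber growth. The hormone binds the nuclear receptor EcR, which pairs with usp, the fly homologue of the vertebrate RXR receptors. The pair switches on a small set of early genes, among them Eip75B, Eip74EF and br, whose protein products are themselves regulators of later genes. Some of these regulators, ftz-f1 included, are nuclear receptors that set when cells can respond to the next hormone pulse.

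Own-strand CDS counts totalled 2080840 to 4623982 in the 8 NUN libraries and 663903 to 1759169 in the 8 cytoplasm libraries. The level of a gene is given on the counts-per-million (CPM) scale. This is its share of a library's CDS counts, scaled between the libraries of a fraction. In cytoplasm the siRNA targets followed their labels: piwi stood at 286 and 305 CPM in siGFP and 249 and 343 in siPAF1, against 85.9 and 42.3 in siPIWI and 101 and 36.0 in the double knockdown. atms stood there at 166 and 170 CPM in siGFP and 104 and 93.3 in siPIWI, against 10.7 and 5.93 in siPAF1 and 11.6 and 9.59 in the double knockdown. In NUN pellets atms was at 58.2 to 82.5 CPM in siGFP and siPIWI and at 18.3 to 34.0 in both groups with siPAF1, whereas piwi ranged from 1010 to 1370 without siPIWI and from 591 to 1070 with it and overlapped. The follicle cell marker tj, a transcription factor of somatic gonad cells, was at 1870 to 3940 CPM in NUN libraries, and the 10 follicle cell markers summed to 5690 to 7060 CPM with none at 0. Summed levels were 48.1 to 76.0 CPM for germline, 251 to 410 for blood cell (He at 0), 2960 to 3870 for muscle, 65.7 to 154 for neuron and 0.416 to 9.56 for fat body markers. One marker of these lists, the neuronal sodium channel gene para, passed the test in a pellet knockdown, at a log2 change of 2.58 ± 0.27 in the double knockdown (edgeR adjusted p = 0.0211). In cytoplasm the follicle cell markers summed to 163 to 570 CPM, with slbo at 0. The siRNA target piwi is among these markers, so their sums also carry its knockdown.

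All 7 genes were counted in every NUN library. The level per kilobase of coding sequence in siGFP pellets was 181 ± 52.2 CPM (SD, n = 2) for br, 159 ± 19.7 for Eip75B and 128 ± 17.8 for usp. It was 98.6 ± 3.87 for ftz-f1, 76.0 ± 7.69 for EcR, 47.5 ± 9.89 for Hr39 and 36.0 ± 1.56 for Eip74EF. The ranges of mean ± SD of the 3 leading genes overlapped, those of ftz-f1 and EcR stood apart from their neighbours, and those of Hr39 and Eip74EF nearly touched. By this measure the genes ranked from 441 (br) to 3646 (Eip74EF) among the 13892 genes with a coding length.

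The receptor pair was measured in pellets as follows. EcR, on chromosome arm 2R at 1977923 to 2056681 in the files' coordinates (minus strand), had 215 and 186 CPM in siGFP (OSS_146 and OSS_147, in this order throughout) and 171 and 184 in siPIWI. It had 213 and 189 CPM in siPAF1 and 188 and 165 in the double knockdown. The siPIWI libraries lay just below both controls, the siPAF1 libraries lay between them and the double knockdown overlapped with them. The genome build is not given in the sources used here. usp, on chromosome X at 1932830 to 1935343 (minus strand), had 214 and 176 CPM in siGFP, 177 and 171 in siPIWI, 183 and 165 in siPAF1 and 169 and 174 in the double knockdown. Its highest library was siGFP OSS_146, and the double knockdown libraries lay just below both controls. usp lies inside the span of Actn on the same strand, so its counts may hold reads of that gene.

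The early response genes follow. Eip75B (3L, 17944507 to 18057721, minus strand), which encodes a haem-binding nuclear receptor, had 733 and 615 CPM in siGFP and 651 and 927 in siPIWI. It had 530 and 623 CPM in siPAF1 and 671 and 765 in the double knockdown, so all groups but siPAF1 reached above the control mean. Eip74EF (3L, 17553257 to 17612407, minus strand) encodes an ETS-domain transcription factor. Its levels were 92.5 and 98.3 CPM in siGFP, 110 and 83.7 in siPIWI, 109 and 99.8 in siPAF1 and 90.2 and 110 in the double knockdown. The siPAF1 libraries both lay above the controls and the other groups spanned them. br (X, 1469164 to 1558700, plus strand) encodes the zinc finger factors of the Broad complex. It had 431 and 652 CPM in siGFP, 621 and 386 in siPIWI, 586 and 603 in siPAF1 and 297 and 608 in the double knockdown. The groups overlapped throughout, and within 3 of the 4 groups the libraries differed more than the group means did.

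Hr39 and ftz-f1 encode the 2 nuclear receptors of the fly that resemble vertebrate SF-1 and LRH-1. Hr39 (2L, 21237236 to 21259675, plus strand) had 98.4 and 132 CPM in siGFP, 156 and 100 in siPIWI, 140 and 144 in siPAF1 and 86.0 and 142 in the double knockdown. The siPAF1 libraries lay above both controls, within the range of the other groups. ftz-f1 (3L, 18743706 to 18794409, minus strand) had 296 and 312 CPM in siGFP, 293 and 270 in siPIWI, 364 and 361 in siPAF1 and 290 and 288 in the double knockdown. Its siPAF1 libraries were the 2 highest of the 8, and the other 6 lay between 270 and 312.

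**Figure D1:**
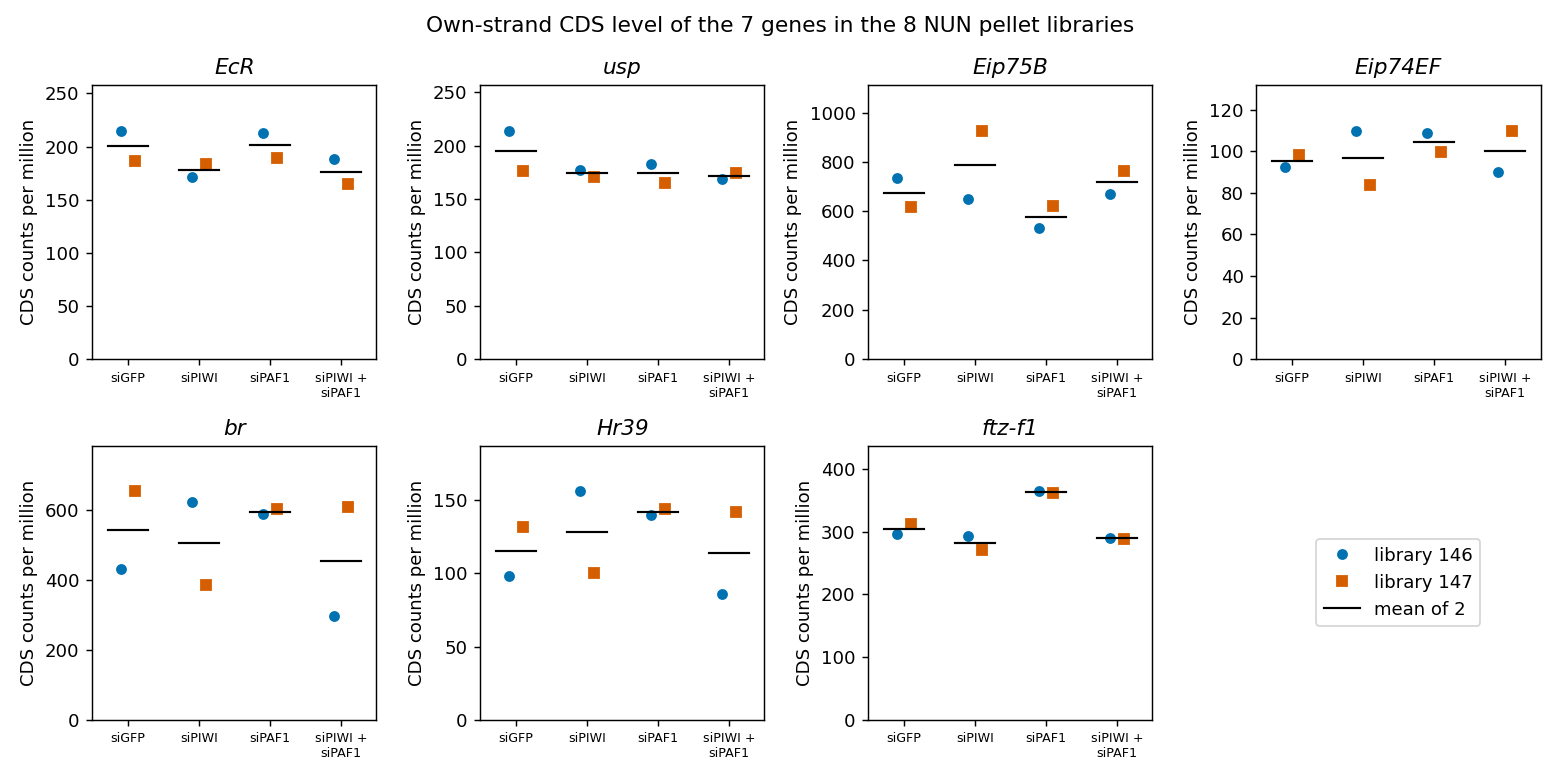
Own-strand CDS level in CPM (vertical axes from 0) of each gene in the 8 NUN pellet libraries, by siRNA group. Points are single libraries (circles OSS_146, squares OSS_147) and bars the mean of 2. Over the 8 libraries br ranges from 297 to 652 CPM and Hr39 from 86.0 to 156 CPM. Libraries of a group differ for both genes except in siPAF1, at 586 and 603 for br and 140 and 144 for Hr39. ftz-f1 is highest in both siPAF1 libraries at 364 and 361 CPM.

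For the effect of the knockdowns in pellets, all 8233 genes past a low-count filter were tested together with edgeR's quasi-likelihood test, with Benjamini-Hochberg adjustment and a threshold of 0.05. Of the 7 genes 0 passed in each of the 3 comparisons with siGFP, by edgeR as by DESeq2. The log2 changes in siPIWI ran from -0.17 ± 0.19 (SE) for EcR to 0.23 ± 0.22 for Eip75B. In siPAF1 they ran from -0.22 ± 0.22 for Eip75B to 0.29 ± 0.30 for Hr39, and in the double knockdown from -0.26 ± 0.35 for br to 0.09 ± 0.22 for Eip75B. The closest to a call was ftz-f1 in siPAF1, at 0.26 ± 0.17 with an edgeR adjusted p of 0.597, higher than both controls in 2 of 2 libraries. Counted over its whole locus ftz-f1 was at 0.49 ± 0.15 in siPAF1, with an edgeR adjusted p of 0.309. On CDS counts, 0 members had an unadjusted p under 0.05 in each of the 3 comparisons. Members were not counted in this way on the whole locus. The members' median was -0.10 in siPIWI, 0.13 in siPAF1 and -0.07 in the double knockdown, against 0 for all genes in each.

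The background to these counts was low too. In siPIWI 0.121% of the genes passed (10 genes, all higher; 19 by DESeq2, 177 at an unadjusted p under 0.05). In siPAF1 0% passed by edgeR, with 31 by DESeq2 and 838 at an unadjusted p under 0.05. In the double knockdown 0.0121% passed (1 gene; 25 by DESeq2, 485 unadjusted). The comparisons share the siGFP libraries. The count of 0 of 7 members is near the background in each. A p that misses the threshold does not show that levels were alike: with standard errors of 0.17 to 0.35 these libraries could not resolve small changes. In such bulk samples fewer cells expressing a gene and less RNA per cell cannot be told apart.

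Adding one siRNA to the other gave no called member either. Against siPIWI alone the double knockdown moved the 7 genes by -0.18 ± 0.30 (Hr39) to 0.05 ± 0.22 (Eip74EF), with 0% of all genes called by edgeR (16 by DESeq2, 297 unadjusted). Against siPAF1 alone br was at -0.39 ± 0.35, ftz-f1 at -0.33 ± 0.18 and Eip75B at 0.32 ± 0.22, with 0% of genes called (5 by DESeq2, 231 unadjusted).

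**Figure D2:**
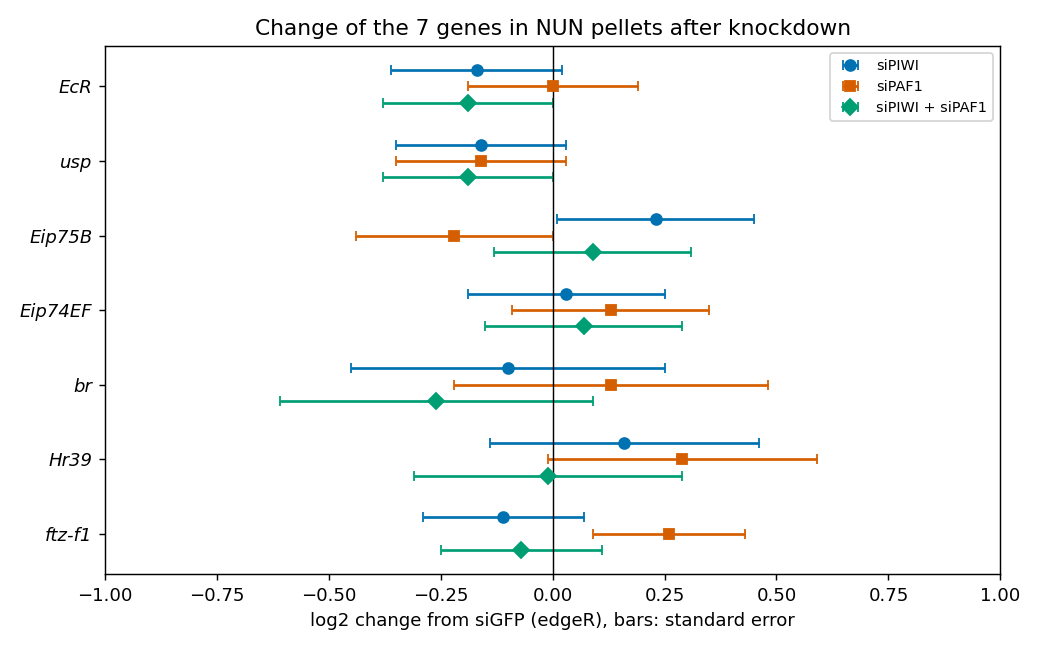
Log2 change from siGFP in NUN pellets (horizontal axis) of each gene under siPIWI, siPAF1 and both, as fitted by edgeR with 2 libraries per group; bars are standard errors. Every estimate lies between -0.26 and 0.29, and none of the 7 genes passed the adjusted threshold.

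Lists of genes around the receptor had no call in pellets either. Of the other nuclear receptor genes 15 of 16 names were found, 7 passed the filter and 0 were called in each of the 3 comparisons with siGFP. Hr78, for example, was at -0.16 ± 0.21 in siPIWI and Hr96 at 0.15 ± 0.24 in siPAF1. Of 17 further ecdysone response genes 13 were tested and 0 called in each comparison, with medians of -0.10, -0.04 and -0.03 in siPIWI, siPAF1 and the double knockdown. Cp1, a cysteine protease gene and the most abundant of them, was at 0.00 ± 0.28, 0.52 ± 0.28 and 0.37 ± 0.28.

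Genes of hormone supply had no call. Of 10 ecdysone synthesis genes 8 were tested, with medians of -0.35, -0.41 and -0.29 in the same order. nvd, the enzyme of the opening step of ecdysone synthesis, was at -0.47 ± 0.28, -0.25 ± 0.28 and -0.48 ± 0.28. spo, a cytochrome P450 of the steps that follow, was at -0.51 ± 0.28, -0.71 ± 0.28 and -1.02 ± 0.28, the last with an edgeR adjusted p of 0.494. Of 5 genes of uptake and inactivation 4 were tested and 0 called, with medians of -0.30, 0.01 and -0.45. Oatp74D, the ecdysone importer, was at -0.17 ± 0.23, 0.49 ± 0.23 and 0.02 ± 0.23. Cyp18a1, which inactivates the hormone, was at -0.32 ± 0.20, 0.37 ± 0.20 and -0.13 ± 0.20. All 14 coregulator genes were tested with 0 called and medians of -0.03, -0.01 and -0.14. Of 7 juvenile hormone response genes 5 were tested and 0 called, with medians of -0.17, 0.05 and -0.22.

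The fractions differed far more than the knockdowns. The CDS of the members was barely counted in cytoplasm: over the 2 siGFP libraries together there were 10 counts for EcR, 18 for usp, 12 for Eip75B, 2 for Eip74EF, 6 for br, 5 for Hr39 and 10 for ftz-f1. In pellets the same sums were 1027, 996, 3443, 496, 2887, 610 and 1580. In CPM every siGFP pellet library was above every siGFP cytoplasm library for each member. Over all 8 cytoplasm libraries CDS levels stayed at 0 to 7.72 CPM for EcR, 0 to 14.1 for usp, 0.646 to 2.51 for Eip74EF, 0 to 9.68 for br, 1.46 to 16.1 for Hr39 and 2.92 to 14.9 for ftz-f1.

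All 7 genes were higher in NUN pellets than in cytoplasm of siGFP cells, in a test over 7983 genes in all 16 libraries. The log2 difference was 5.51 ± 0.76 for br, 4.83 ± 0.58 for Eip75B, 4.57 ± 0.60 for Eip74EF and 3.94 ± 0.53 for ftz-f1. It was 3.54 ± 0.66 for Hr39, 3.35 ± 0.50 for EcR and 2.46 ± 0.54 for usp. The highest edgeR adjusted p of the 7 was 0.000308 (usp). Counted over the whole locus all 7 were called too, from 1.22 ± 0.28 for usp to 5.44 ± 0.50 for br. For these 2 genes the locus counts cover unlike lengths in the 2 fractions. The 3' untranslated window of usp was 818 to 2968 bases long in pellet files and 639 to 668 in cytoplasm files. That of br was 161 to 13261 and 50 bases long. Of all genes 66.9% were called in this comparison and 36.6% were called higher in pellets. The median of all genes was 0.55, or 0.67 with DESeq2's size factors, and the members' median was 3.94. The fit scales libraries by normalization factors, which spanned 0.37 to 1.83 over the 16 libraries. These differences are thus relative to the other genes after scaling and are not differences of raw shares of counts. They do not say how many molecules each fraction holds.

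Other lists differed in how far they lay towards pellets, against a background of 2924 of 7983 genes called higher and 2416 called lower. Of 12 further ecdysone response genes tested 7 were higher in pellets and 3 lower, with a median of 3.54. vri, a bZIP transcription factor, was at 3.84 ± 0.57 and Eip63E, a cyclin-dependent kinase gene, at 3.25 ± 0.47. Of the 14 coregulators 9 were higher and 2 lower (median 1.96), with tai, the p160-type coactivator of EcR, at 5.63 ± 0.73 and Smr, a corepressor, at 6.45 ± 0.63. Of 8 synthesis genes 1 was higher and 2 lower (median 1.12), with sad, a P450 of a late step, at -3.44 ± 0.43. The other nuclear receptor genes had a median of 1.61, uptake and inactivation genes 1.49 and juvenile hormone response genes 2.61.

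Some marker lists of cell types lay about as far towards pellets as the members, whose median was 3.94. The follicle cell markers had 7 of 8 tested genes higher and 0 lower, with a median of 3.70. The neuron markers had 4 of 4 higher (median 6.81) and the blood cell markers 2 of 3 (median 3.76), while muscle markers had 2 of 4 (median 1.98) and germline markers 1 of 4 higher and 1 lower (median -0.53).

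Where the counts lay within each gene differed between fractions. For each library the files also count the annotated untranslated windows (UTR), whose lengths vary between files, and the whole locus. The rest of the locus was taken as the locus less the CDS and both UTR windows, which covers introns and exons used by other models only. In siGFP pellets it held 76.0% of the locus counts of EcR, 72.1% of Hr39 and 64.5% of ftz-f1. It held 35.4% of Eip75B and 23.6% of Eip74EF, against 27.4% over all genes. In usp, which has a single model, it was set to 0%, because its regions held more counts than its locus. The CDS, 5' and 3' UTR windows held 996, 428 and 170 counts there, against 1539 in the locus. For br it held 3175 of 4345 counts in OSS_146 and 4335 of 11896 in OSS_147, where the 3' UTR window held 21 and 4564. That window ranged from 161 to 13261 bases between pellet files, so the summed br share of 46.2% is not comparable with the other genes.

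In the cytoplasm the counts of 5 members lay mostly on the 3' UTR window. There it held 119 of 133 EcR counts over both siGFP libraries (89.5%), 109 of 116 for Hr39 (94.0%), 22 of 25 for Eip74EF (88.0%), 83 of 103 for usp (80.6%) and 69 of 87 for ftz-f1 (79.3%). Eip75B had 67 of 136 there (49.3%) and 56 in the rest of the locus (41.2%). Over all genes the share was 36.2%. In pellets the same window held 1.08% of the counts of EcR, 2.98% of Hr39, 3.52% of ftz-f1, 7.06% of Eip75B and 19.2% of Eip74EF, and 170 of 1539 counts of usp, against 8.96% over all genes. usp and Eip74EF were thus above the share of all genes and the other 4 below it. The usp window, however, was 818 to 2968 bases long in pellet files and 639 to 668 in cytoplasm files, so its shares compare unlike windows. Other windows varied less. That of EcR was 2219 to 2691 bases long in pellet files and 2219 to 2241 in cytoplasm files. In the same order that of Hr39 was 1896 to 2221 and 1896 to 1971, and that of ftz-f1 1047 and 1047 to 1244.

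br had 0 counts in the 3' UTR window of the model used, which is only 50 bases long in the cytoplasm files. Models of br differ in their 3' ends. The 2109-base coding model, ending at 1558700, had 114 and 85 counts in its 3' UTR window in the siGFP cytoplasm libraries, and the models ending at 1539195 had 19 and 16. The model used ends at 1543139, so the former window lies beyond it and the latter falls inside its span. Within its locus 45 of 55 cytoplasmic counts fell in the rest. The br window also varies in length between pellet files, so neither its 28.2% share in pellets nor the 46.2% in the rest is comparable with the cytoplasm. With the br model that has the most CDS counts, the pellet to cytoplasm difference was 4.86 ± 0.61.

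**Figure D3:**
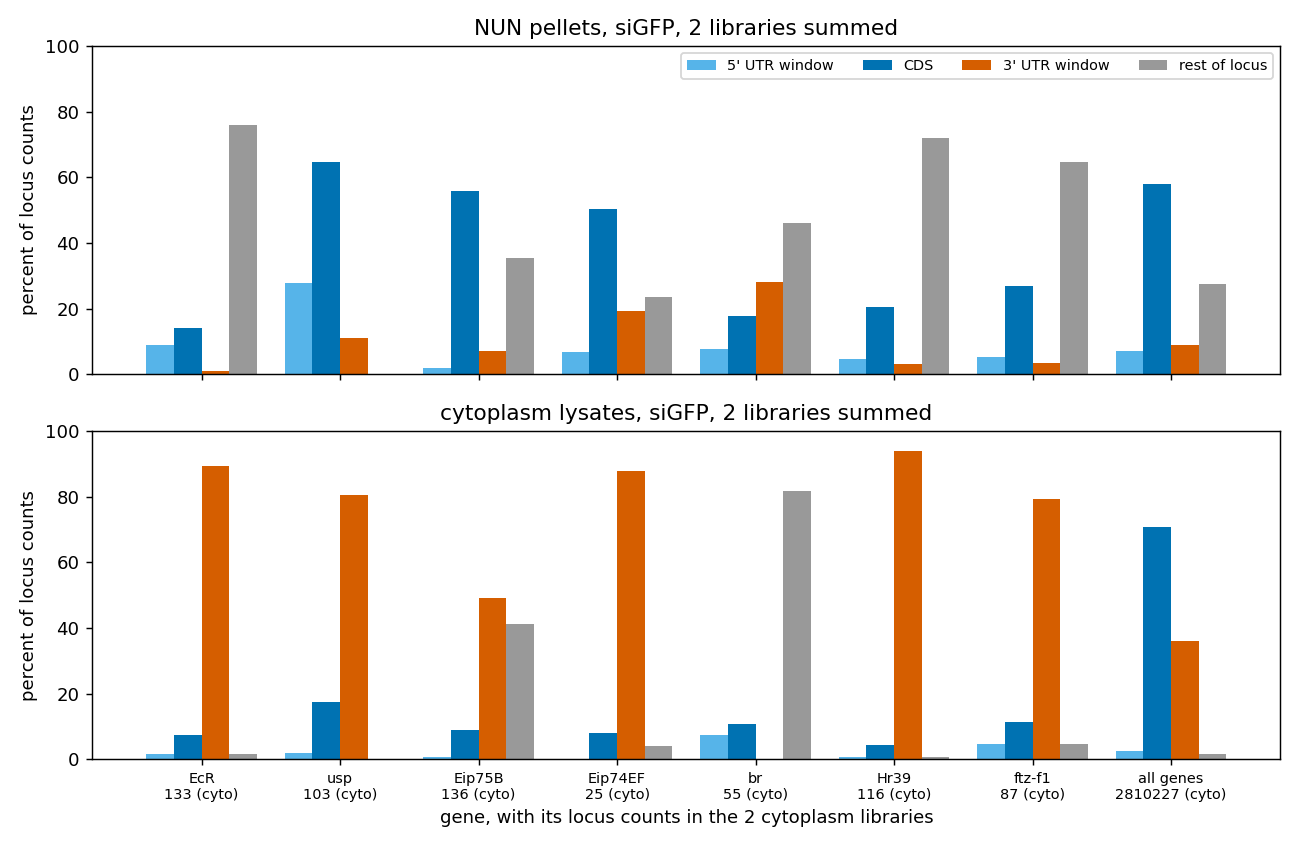
Share of each gene's locus counts (percent, vertical axes) in the 5' UTR window, CDS, 3' UTR window and rest of the locus, for NUN pellets (top) and cytoplasm lysates (bottom) of siGFP cells, 2 libraries summed; a read can count in 2 regions. In cytoplasm the 3' UTR window holds 79.3% to 94.0% of the counts of EcR, usp, Eip74EF, Hr39 and ftz-f1. In pellets it holds 1.08% to 19.2% of the counts of these genes. The windows of usp and br differ most in length between files, and those of the other genes vary less.

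The CDS was compared with the 3' UTR window in 1 model holding both counts of each library, a comparison chosen after the counts had been seen. Relative to the 3' UTR window, CDS was higher in pellets for 6 of the 7 genes. The log2 difference of the ratio was 7.35 ± 0.87 for EcR, 7.24 ± 0.97 for Hr39 and 5.84 ± 1.01 for ftz-f1. It was 5.36 ± 1.06 for Eip75B, 4.83 ± 1.12 for usp and 4.74 ± 0.66 for Eip74EF, and the br value of -3.45 ± 6.90 is uninformative. The usp window was longer in pellet files than in cytoplasm files, so the usp value compares unlike windows. Of 5980 genes 60.2% were called, 58.7% in this direction, with a median of 2.85. These sizes depend on the scaling. With each kind of count scaled by its own normalization factors the median of all genes moved from 2.85 to -0.41, and 2668 genes were called in place of 3602. EcR, Hr39 and ftz-f1 stayed past the threshold, while usp at 1.54 ± 0.86, Eip75B at 2.10 ± 0.85 and Eip74EF at 1.48 ± 0.90 did not.

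On the 3' UTR window itself the fractions differed less. Eip74EF was higher in pellets at 2.92 ± 0.44 and Eip75B at 2.43 ± 0.55, both also without any single siGFP library. ftz-f1 at 1.16 ± 0.41 and EcR at -0.97 ± 0.33 were called with edgeR adjusted p of 0.0301 and 0.0278, but each call was lost whichever of the 4 siGFP libraries was left out. With 1 of them left out EcR ranged from -1.02 to -0.72, with the value nearest 0 without cytoplasm library OSS_147. Of 6122 genes 48.5% were called. By direction 25.7% were called higher in pellets and 22.8% lower. usp at 0.70 ± 0.49 and Hr39 at -0.67 ± 0.34 were not called by edgeR, nor was br at 13.71 ± 5.31. The windows of usp and br differ most in length between pellet and cytoplasm files. DESeq2 differed for 2 members: EcR missed the threshold, at -0.87 ± 0.42 with an adjusted p of 0.0799, and br passed it, at 12.75 ± 3.38 with an adjusted p of 0.000745. With 0 counts in the br window in cytoplasm, these fitted br values are no measure of size.

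CDS against the rest of the locus gave mixed directions over fractions and rests on few cytoplasm counts. In siGFP cytoplasm the rest of the locus held 1 and 1 counts for EcR, 1 and 0 for Hr39, 3 and 1 for ftz-f1 and 17 and 39 for Eip75B. The ratio of CDS to the rest was lower in pellets for EcR (-4.68 ± 1.01), Hr39 (-4.10 ± 1.32) and ftz-f1 (-2.59 ± 0.82) and higher for Eip75B (2.86 ± 0.83). Of 2123 genes 33.9% were called, 28.2% lower and 5.65% higher, with a median of -2.47. Eip74EF (0.11 ± 4.09) and br (1.46 ± 1.15) were not called, and usp could not be tested. Without cytoplasm library OSS_147 none of the 4 was called, at -4.36 for EcR, -2.84 for Hr39, -1.99 for ftz-f1 and 2.21 for Eip75B, and without pellet library OSS_146 Hr39 (-3.73) and ftz-f1 (-2.60) were not. ftz-f1 was also lost without pellet library OSS_147, and Eip75B without cytoplasm library OSS_146. Taking the rest as all of the locus outside CDS, UTR windows included, moved the median of all genes to 1.89 and let all 7 members be tested, of which 3 were called. EcR, Hr39 and ftz-f1 then turned to 1.03, 2.43 and 1.49, none of them past the threshold (edgeR adjusted p of 0.309, 0.0515 and 0.156). Eip74EF passed it, at 3.48 ± 0.70 with an edgeR adjusted p of 0.000872. In pellets, 6 of the 7 genes could be tested for this ratio after knockdown and 0 were called in each, with 0% of 2504 genes called by edgeR and 10, 81 and 35 at an unadjusted p under 0.05 in siPIWI, siPAF1 and the double knockdown. DESeq2 was not run on this ratio. ftz-f1 in siPAF1 was at -0.39 ± 0.22.

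In cytoplasm after knockdown only usp, Eip75B and ftz-f1 passed the filter on CDS counts, and 0 of the 3 were called by edgeR. At an unadjusted p under 0.05 the count was 1 in siPIWI and 1 in the double knockdown, Eip75B in both. EcR and usp had 0 CDS counts in double knockdown library OSS_147, which allows up to 3.60 CPM (3 counts, counting error only). br had 0 counts there and in siPIWI OSS_147, where the limit is 4.37 CPM. Of 5715 genes 0% were called in siPIWI by edgeR (865 unadjusted, 0 by DESeq2), 0.105% in siPAF1 (550 unadjusted, 35 by DESeq2) and 0.0175% in the double knockdown (644 unadjusted, 42 by DESeq2). usp was at -0.54 ± 0.87, -1.09 ± 0.89 and -0.69 ± 0.84 in siPIWI, siPAF1 and the double knockdown, and ftz-f1 at 0.22 ± 0.83, -0.21 ± 0.85 and 0.62 ± 0.79. DESeq2 gave the 3 members no adjusted p in siPAF1 and the double knockdown.

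Eip75B varied between the cytoplasm libraries. Its CDS level was 8.15 and 7.72 CPM in siGFP, 38.7 and 10.2 in siPIWI, 13.2 and 5.93 in siPAF1 and 37.0 and 22.8 in the double knockdown. siPIWI OSS_146 and both double knockdown libraries stood apart from the controls, while siPIWI OSS_147 lay close to them. The log2 change was 1.70 ± 0.66 in siPIWI (edgeR adjusted p = 0.304), 0.32 ± 0.71 in siPAF1 and 1.93 ± 0.65 in the double knockdown (edgeR adjusted p = 0.301).

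Of these libraries siPIWI OSS_146 and double knockdown OSS_146 also held more counts on genes that are high in pellets. The 1621 genes that were at least 3 log2 units higher in pellets, members left out, took 3.69% of the CDS counts in cytoplasm siPIWI OSS_146 and 2.33% in double knockdown OSS_146. In the other 6 cytoplasm libraries they took 0.504% to 1.02%, with 0.731% in double knockdown OSS_147. Hr39 too was highest in siPIWI OSS_146, with 25 CDS counts against 1 to 12 in the other 7 cytoplasm libraries. Without siPIWI OSS_146 the Eip75B change in siPIWI was 0.35 ± 0.83, and without siPIWI OSS_147 it was 2.23 ± 0.60 and passed (edgeR adjusted p = 0.0108). Without both high libraries, an alternative chosen after seeing the data, the changes were 0.35 ± 0.80 in siPIWI and 1.52 ± 0.66 in the double knockdown. Fitted with its 2 groups alone the double knockdown passed at 2.02 ± 0.58 (edgeR adjusted p = 0.0367). On the whole locus Eip75B was at 0.44 ± 0.37 and 0.20 ± 0.37 in these comparisons. The part of pellet RNA in the Eip75B values was not tested beyond this.

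**Figure D4:**
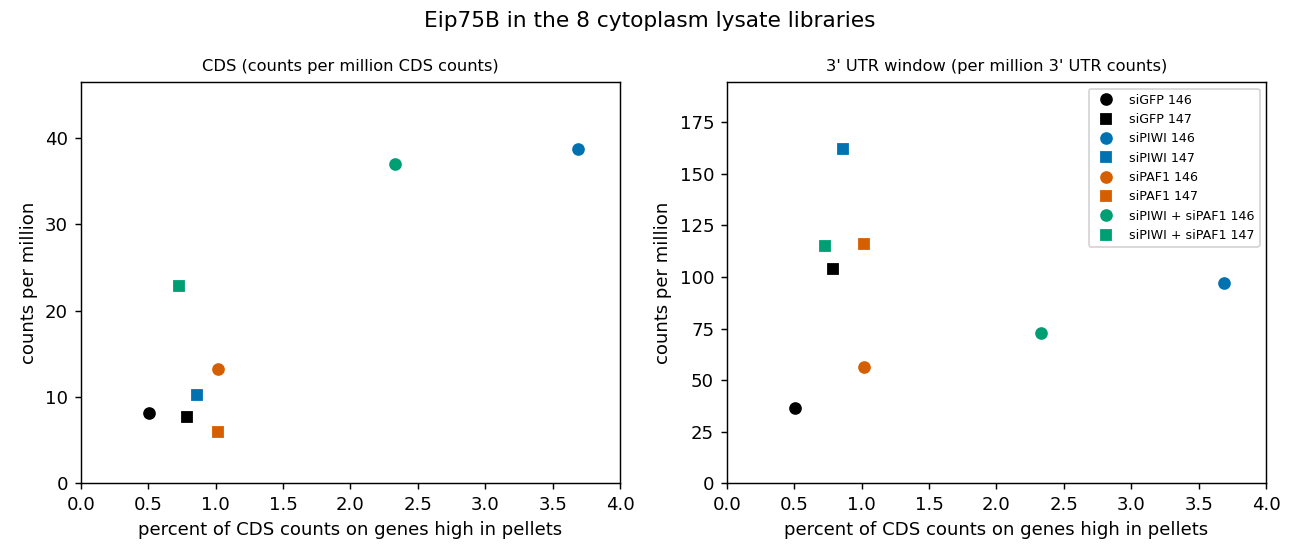
Eip75B in the 8 cytoplasm libraries: CDS level (left) and 3' UTR level (right), each in CPM of its own kind of count, against the percent of CDS counts on genes high in pellets. The 2 libraries with 3.69% and 2.33% have the highest CDS levels, 38.7 and 37.0 CPM, but not the highest 3' UTR levels.

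The 3' UTR window, where most cytoplasmic counts of 5 members lay, gave no called member among the 6 tested in any knockdown. Of 4415 genes 0.068%, 0.0453% and 0.136% were called in siPIWI, siPAF1 and the double knockdown by edgeR (8, 12 and 17 genes by DESeq2; 281, 437 and 463 unadjusted). At an unadjusted p under 0.05 the count of members was 0 in each. EcR had 58 and 61 counts there in siGFP, 58 and 35 in siPIWI, 68 and 38 in siPAF1 and 65 and 43 in the double knockdown. Its log2 changes were -0.36 ± 0.30, -0.53 ± 0.30 and -0.61 ± 0.30. Eip75B was at 0.88 ± 0.52, 0.27 ± 0.52 and 0.41 ± 0.52, less than on CDS in siPIWI and the double knockdown. These fits were added after the data were seen.

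Whether a knockdown acted differently in the 2 fractions was tested directly, over 7983 genes. Of the 7 members 0 passed in each of the 3 tests, with 0% of genes called by edgeR in each, 730, 409 and 450 at an unadjusted p under 0.05 and 0, 3 and 1 by DESeq2. The member farthest from 0 was Eip75B in the double knockdown, with a pellet change lower than the cytoplasm change by 1.85 ± 0.74 on the log2 scale and an edgeR adjusted p of 0.781. It was the 1 member with an unadjusted p under 0.05 in these tests.

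EcR stood apart from the other members in RNA of the opposite strand. Over the 8 NUN libraries its CDS held 2557 opposite-strand counts beside 4458 of its own, a share of 36.5%. The share was 5.20% for br and between 0.201% and 1.39% for the other 5 genes. Among 8216 genes with a mean of 20 or more CDS counts on both strands together the median was 2.13%, and 14.3% of genes had at least the share of EcR. The EcR model with 2010 coding bases held 2521 such counts. The cytoplasm libraries together held 4 on the model used. The only gene listed on the opposite strand within EcR is CG14589 at 2024807 to 2025925, outside the span of the model used. The library kit keeps the strand.

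The opposite-strand counts of EcR were lowest in siPAF1 pellets. They were 418 and 336 in siGFP, 650 and 386 in siPIWI, 138 and 163 in siPAF1 and 262 and 204 in the double knockdown. Scaled like CPM, by the library's own-strand CDS total, this was 151 ± 53.7 (SD, n = 2) in siGFP, 162 ± 38.9 in siPIWI, 45.8 ± 4.45 in siPAF1 and 91.4 ± 26.3 in the double knockdown. On this scale both siPAF1 libraries lay below all others, and both double knockdown libraries lay below both controls. The 3 pellet libraries with the fewest CDS counts were siGFP OSS_146, siPIWI OSS_147 and double knockdown OSS_146. They stood at 189, 190 and 110, against 113, 135 and 72.8 in the other library of their groups. None of these 3 is a siPAF1 library, and their part in the siPAF1 difference was not tested. Own-strand EcR in siPAF1 was at a log2 change of 0.00 ± 0.19.

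In a test over the opposite-strand counts of 3325 genes, added after these counts were seen, EcR fell by 1.49 ± 0.31 on the log2 scale in siPAF1 (edgeR adjusted p = 0.012, DESeq2 adjusted p = 0.000815). In this comparison 2.17% of genes were called and 0.932% were called lower. It was at 0.38 ± 0.30 in siPIWI and -0.41 ± 0.30 in the double knockdown, neither called, where 1.59% and 2.11% of genes were. The call was lost without siGFP library OSS_146, at -1.24 (edgeR adjusted p = 0.103), and without siPAF1 library OSS_146, at -1.50 (0.118). The test of own against opposite strand gave 1.69 ± 0.43 in siPAF1 with an edgeR adjusted p of 0.109, so a difference between the strands in their response was not established, and 0.407% of 2211 genes were called there. In siPIWI it gave -0.30 ± 0.42 (0.588% of genes called) and in the double knockdown 0.52 ± 0.42 (0.407% called). Eip75B and br, the other members with enough opposite-strand counts, were not called, with br at 0.64 ± 0.37 in siPAF1 and 0.77 ± 0.37 in the double knockdown.

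**Figure D5:**
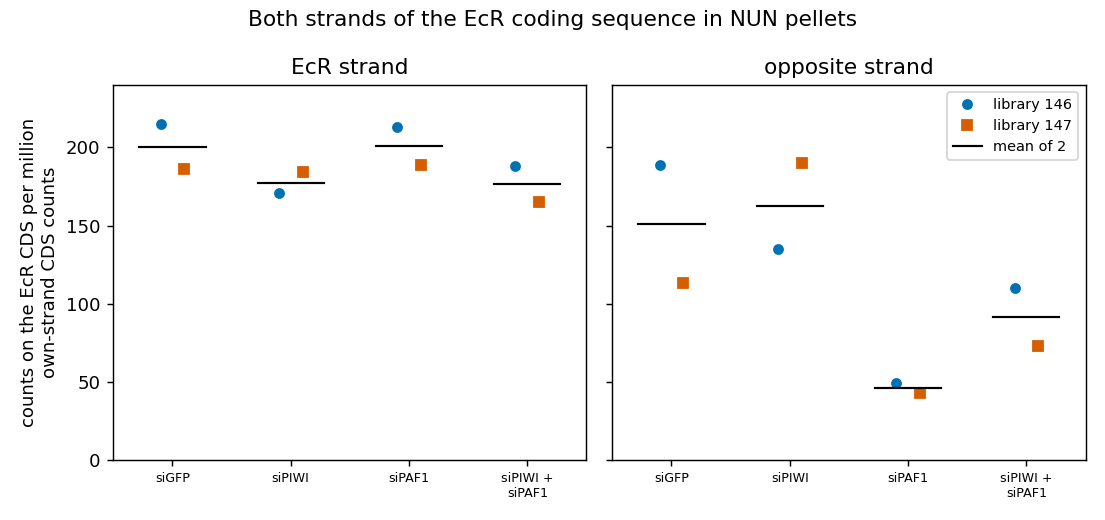
Counts on the EcR coding sequence in NUN pellets, on the EcR strand (left) and the opposite strand (right), both scaled to CPM by the own-strand CDS total, for the 8 libraries and their means of 2. Own-strand levels stay between 165 and 215, while the opposite strand is lowest in both siPAF1 libraries at 48.9 and 42.6.

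Gene models within a locus were counted unequally in pellets. The 2652-base Eip74EF model had 2407 CDS counts over the 8 NUN libraries, while the models of 2490 to 2607 coding bases had 1034 to 1047. The longer ftz-f1 model (3084 coding bases) had 7445 counts and the shorter (2412 bases) 4561. For EcR the models of 2637, 2550 and 2010 coding bases had 4458, 3675 and 2958. Models share exons, so these counts overlap and are no measure of isoform abundance. The 3' UTR windows of EcR and ftz-f1 are nested, the longer one including the shorter. In cytoplasm the longer windows held 426 counts over 8 libraries for the EcR models ending at 1977923 against 63 for the model ending at 1979370, and 704 for ftz-f1 ending at 18743706 against 317 at 18744848.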

How the data were processed

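Strand-specific RNA libraries of 8 groups of 2 were deposited as 1 table per library. Reads were aligned with Bowtie, per the submitters' processing notes; version, genome build and counting rules are not given in the sources used here. The authors deposited read counts per gene model, as unique alignments on CDS, UTR windows and locus of each strand, and these counts were used as deposited. The columns marked (-) hold a gene's own RNA: 93.2% to 95.3% of CDS counts in NUN libraries and 99.2% to 99.6% in cytoplasm. UTR windows and locus ends differ between files (3' UTR length in 18480 of 24995 models), and a read can count in 2 regions.

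The longest coding model per gene was taken. Counts were tested with edgeR 4.0.16 (R 4.3.3) quasi-likelihood fits, TMM scaling, filterByExpr and Benjamini-Hochberg adjustment over all genes, with 1 coefficient per group. NUN, cytoplasm and all 16 libraries were fitted separately (8233, 5715 and 7983 genes). CPM (counts-per-million) values use TMM-scaled own-strand CDS totals of the fraction. SE is the log2 change over the square root of F. Ratios of 2 counts were tested with both in 1 model, a library block and a count-by-group term. DESeq2 1.42.0 was an alternative. Simulated data, with the same spread for all genes, were run through the NUN and cytoplasm CDS fits and the NUN fit of CDS against rest of locus. The other fits were not simulated.

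The members and lists were chosen with earlier results of these data known. All members are named; from each list come up to 4 called genes by lowest p, or else its 2 of highest level, not all of which are printed, and likeness names the top correlated genes. Tests on the 3' UTR, the opposite strand and CDS against 3' UTR were added after seeing the data. Marker lists covered follicle cell, germline, blood cell, muscle, neuron and fat body. Library number is not in the model. Depth limits cytoplasm most; intervals and floors cover counting error only.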

Additional observations from a re-analysis of the deposited data

How the results depend on the processing

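Alternatives for the CDS tests were other size factors, DESeq2, other filters, leaving out each library, a replicate block for the library number, the whole locus, both strands, all alignments, another gene model and fitting 2 groups alone. In NUN knockdown comparisons 0 of 490 recomputed member values passed, with values from -1.0 to 0.52 and a lowest adjusted p of 0.309. In pellets against cytoplasm all 91 recomputed values stayed higher in pellets and past the threshold, from 1.22 to 6.15. The value of 1.22 is that of usp on the whole locus, whose 3' UTR window is longer in pellet files. Like-numbered libraries did not deviate together throughout (correlations of deviations -0.31 to 0.65 in NUN and -0.17 to 0.57 in cytoplasm). With the replicate block the number of called members changed in 0 of 19 comparisons; the count stayed at 7 in pellets against cytoplasm and at 1 for the EcR opposite strand.

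The number of called members moved by over 1.5 times as follows. For cytoplasm double knockdown it was 1 with the 2 groups alone. With each kind of count scaled by its own factors it was 2 for CDS against rest of locus and 3 for CDS against 3' UTR. Leaving out single libraries gave 0 to 1 in cytoplasm siPIWI, 0 to 3 for CDS against rest of locus between fractions, 0 to 1 for the opposite strand in siPAF1 and 2 to 2 for the 3' UTR between fractions. Values that reversed did so with the locus less CDS alone as the rest: EcR 1.03, Hr39 2.43 and ftz-f1 1.49; by construction that rest includes the UTR windows. In the 2-group and left-out fits fewer libraries enter; otherwise the cause was not tested. Where a fit left 1 library in a group, that library is assumed to vary like the rest, and for tests over all 16 libraries added after seeing the data only siGFP libraries were left out. A further 154 uncalled values changed sign without passing the threshold.

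Depth limits the cytoplasm, where siGFP CDS counts were 2 to 18 per member.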

Other observations

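br, Hr39 and Eip74EF moved together over the 8 NUN libraries. Their levels were lowest in the same 3 libraries, siGFP OSS_146, siPIWI OSS_147 and double knockdown OSS_146, and in neither siPAF1 library. These 3 also had the fewest CDS counts (2080840 to 2267366, against 2839070 to 4623982 in the other 5). br was at 297 to 431 CPM in these 3 and at 586 to 652 in the rest, Hr39 at 86.0 to 100 against 132 to 156, and Eip74EF at 83.7 to 92.5 against 98.3 to 110. Of 7245 genes 15.6% were lower in all 3 than in the rest and 12.6% were higher. These 3 libraries also differed from the other 5 in where the counts of all genes lay. Their 5' UTR windows held 4.6% to 5.5% of locus counts against 6.6% to 8.6%. Their 3' UTR windows held 6.3% to 7.8% against 9.2% to 10.7%, though window lengths vary between files. The part of depth or of this composition in the levels was not tested. Over the 8 libraries Pearson's r of log2 CPM was 0.95 for br and Hr39, 0.86 for Eip74EF and Hr39 and 0.78 for Eip74EF and br, against 0.61 for EcR and usp and -0.82 for Eip75B and ftz-f1. These are descriptions, and the values of both genes in a pair come from the same libraries and share their depth.

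The genes most like each member over the same 8 libraries, out of 7244, were Camta (r = 0.996) and jim (0.989) for br, fl(2)d (0.990) for Hr39, l(1)G0222 (0.970) for Eip74EF and CG33275 (0.980) for EcR. For ftz-f1 it was sky (0.973), for Eip75B l(2)35Di (0.964) and for usp alpha-Est1 (0.919).

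Hr4, another nuclear receptor gene, also had fewer opposite-strand counts in siPAF1 pellets, at -1.46 ± 0.38 on the log2 scale with an edgeR adjusted p of 0.0456.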
